A study of Mus musculus with 4 samples.

Results

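Cathepsins are the proteases that break down proteins inside lysosomes, and 10 genes of this system (*Ctsb*, *Ctsd*, *Ctsk*, *Ctsl*, *Ctss*, *Ctsz*, *Ctsc*, *Lgmn*, *Cst3*, and *Grn*) were read by symbol from the 27998 genes counted in single cells of the inflamed spinal cord. All 10 were present in the count tables. The cells came from mice with experimental autoimmune encephalomyelitis (EAE), a model of CNS autoimmunity induced with a myelin peptide in CFA, and were sequenced as 4 libraries, 1 per condition. The mIgG1 and Ang2 Ab libraries came from 15-week-old C57Bl/6JOlaHsd wild-type mice at 14 dpi that received control IgG or an antibody blocking the vascular growth factor Ang2 from induction on, and are called the blockade pair. The overexpression pair was taken at 12 dpi from 12- to 14-week-old C57Bl/6JCrl mice: *EC-Ang2* mice, in which a tTA driven by the VE-cadherin promoter switches on an Ang2 transgene in endothelial cells (ECs), and their single transgenic littermates (Ctrl). In both *EC-Ang2* and Ctrl mice the transgene system had been held off with doxycycline until birth. All 4 libraries held CD45+ and CD31+ cells sorted in equal numbers, the number of mice pooled in each was not given in the sources used here, and the pairs differ in substrain, day, and treatment and were not compared with each other.

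The cathepsins differ in mechanism. Cathepsin D (*Ctsd*) is an aspartyl protease, whereas cathepsins B, L, S, and K are cysteine proteases; cathepsin S also trims the invariant chain of MHC class II, and cathepsin K degrades collagen and is best known from osteoclasts. Cathepsins C and Z (*Ctsc*, *Ctsz*) remove residues from the ends of proteins, cathepsin C thereby activating the serine proteases of granulocytes, and legumain (*Lgmn*) cuts after asparagine and matures other cathepsins. Cystatin C (*Cst3*) is the secreted inhibitor of cysteine cathepsins, and progranulin (*Grn*) is a lysosomal glycoprotein that is itself cut by cathepsins; microglia and macrophages are rich in most of these products.

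Genes of the lysosome often carry the hexamer CACGTG near their start, which is bound by basic helix-loop-helix factors such as TFEB. The 250 bases before the annotated start (RefSeq, GRCm38.p6) were searched for it for the 9 members with an entry (*Ctsb* had none). The hexamer reads the same on both strands. It was held by 3 of these members, against 6.02% of 32851 promoter entries. The members were counted by gene and the background by entry, and *Lgmn* also had an entry without the hexamer. The 4 sites, in *Ctsd*, *Ctsl*, and *Lgmn*, are shown as the matches among the members. The entries of *Ctsk*, *Ctss*, *Ctsz*, *Ctsc*, *Cst3*, and *Grn* held none. A relation between the hexamer and the levels below was not tested. Capitals mark the hexamer, and each line is read 5′ to 3′ on the minus strand.
Ctsd, 245 bases before the start, chr7:142388057-142388077: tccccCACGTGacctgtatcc
Ctsd, 98 bases before the start, chr7:142387910-142387935: gcccgcgtctCACGTGacccgttgag
Lgmn, 49 bases before 1 of its 2 annotated starts, chr12:102439126-102439151: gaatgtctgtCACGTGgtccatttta
Ctsl, 236 bases before the start, chr13:64370741-64370766: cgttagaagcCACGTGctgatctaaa
In the GENCODE annotation of GRCm38 the genes span chr14:63122462-63145923 (*Ctsb*), chr7:142375911-142388038 (*Ctsd*), chr13:64359337-64370890 (*Ctsl*), chr2:174427493-174439039 (*Ctsz*), chr7:88278085-88310888 (*Ctsc*), chr12:102394084-102439813 (*Lgmn*), chr2:148871722-148875692 (*Cst3*), and chr11:102430315-102437048 (*Grn*). *Ctsk* (chr3:95499256-95509362) and *Ctss* (chr3:95526786-95556403) are neighbors, 17423 bases apart. The RefSeq starts of *Ctsd*, *Ctsl*, and *Lgmn* lie inside these spans, so that all sites but the one 245 bases before the *Ctsd* start are within the annotated gene.

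Of the barcodes with at least 2000 unique molecular identifiers (UMIs, which count each captured transcript once), 5017 to 6795 per library remained after filtering. Barcodes shared between libraries numbered 44 to 64 per pair of libraries, against 39.9 to 58.9 expected by chance. Cells were clustered without the members and named from marker transcripts with the ending "-like". Each level (CPM) is a gene's UMI total in a class, scaled to 1000000 UMIs of that class and library, and brackets hold 95% exact Poisson intervals, which cover counting error only. With 1 library per condition no difference could be tested, and "higher" or "lower" by the size rule means at least 1.5-fold, detection in 10% of cells in either library, and a total of 50 UMIs over the pair. Transcripts that leak from broken cells into every droplet (free RNA) were estimated at 3.47% to 7.04% of the UMIs of each class and library. The exceptions were 9.20% in granulocyte-like cells of Ctrl and 11.8% and 17.7% in the mature dendritic cell-like cells of mIgG1 and Ctrl. In immune classes the estimate rests on EC genes, which a droplet that also held an EC would raise. The EC marker genes summed to 16092 to 21013 CPM in ECs and to 289 to 394 CPM in macrophage-like cells, whereas the 9 microglial markers summed to 2690 to 6908 CPM in microglia-like and 124 to 373 CPM in macrophage-like cells (1947 to 2381 CPM in ECs, with *Sparc* on that list).

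The 10 genes together made up 3.55% to 5.39% of all UMIs of microglia-like cells (303 and 318 cells under control IgG and blockade, 737 and 68 without and with the active transgene) and 2.02% to 3.20% of those of macrophage-like cells (1639, 1392, 392, and 1079 cells). In ECs (2808, 3295, 3418, and 2319 cells) they made up 0.256% to 0.296%. The macrophage-like cells comprised an *Ms4a7* class, rich in complement and *Apoe* transcripts, a *Gpnmb* class, and a *Nos2* class, of which the *Gpnmb* class had only 13 cells in Ctrl.

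**Figure D1:**
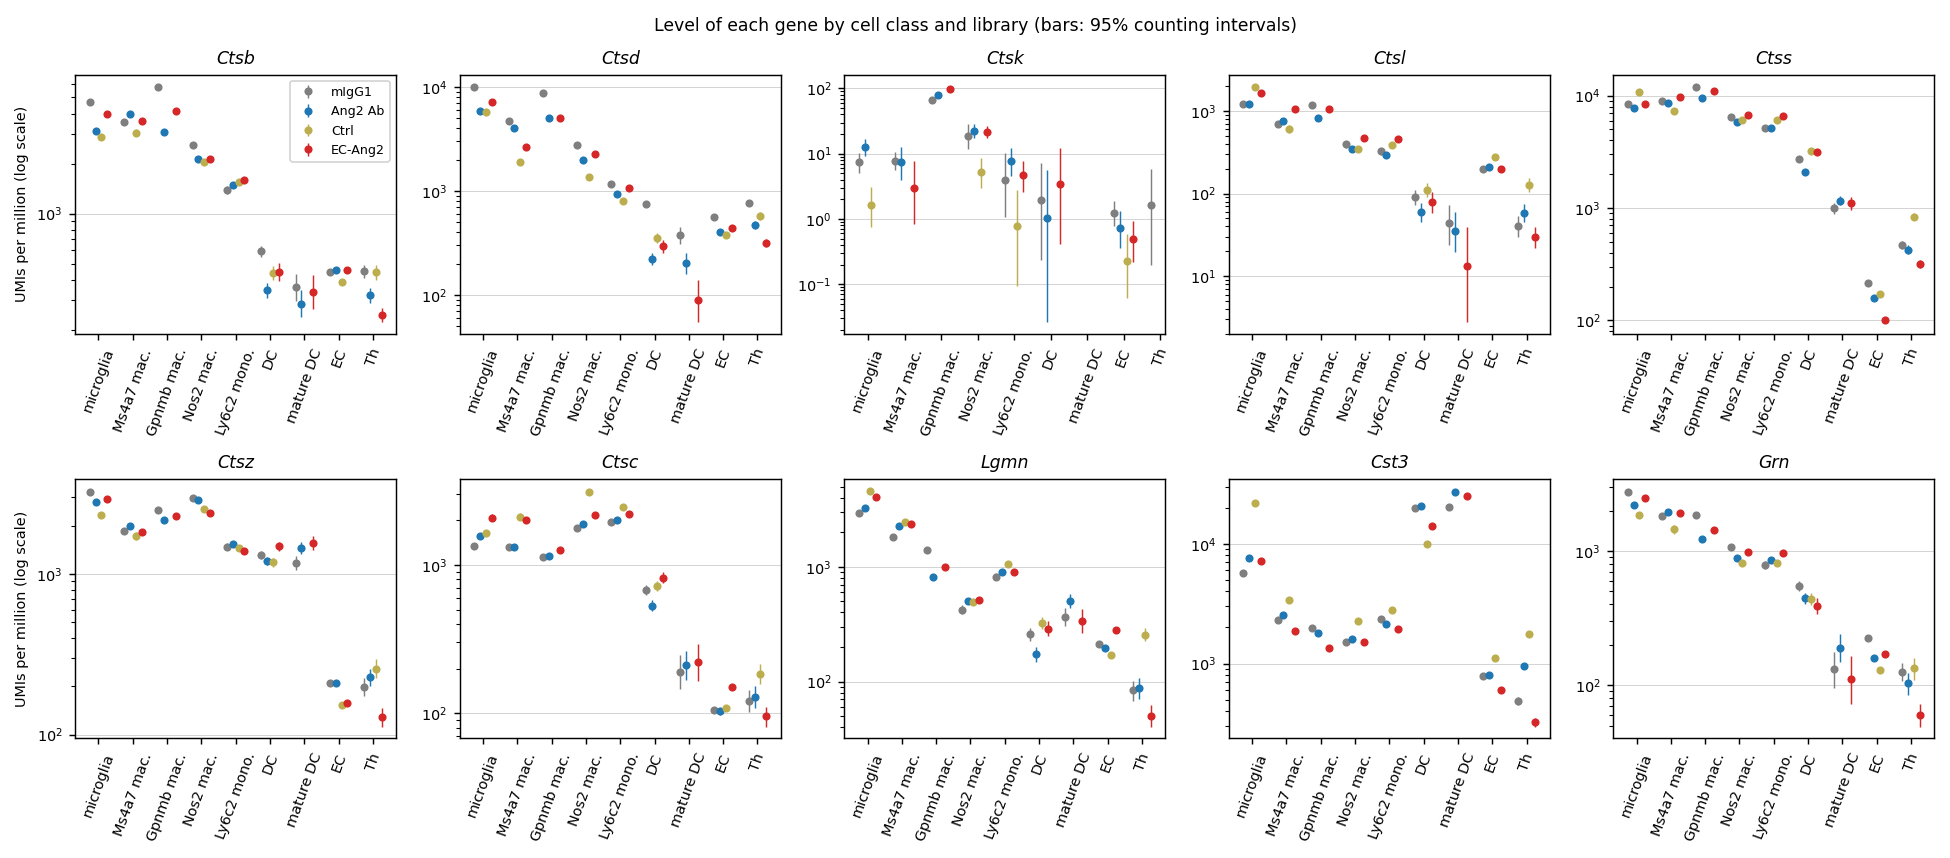
Levels of the 10 genes in 9 cell classes, in CPM on a log axis; points are libraries with at least 30 cells in the class, bars are 95% counting intervals, and levels of 0 are not drawn. Microglia and macrophage (mac.) classes sit above ECs and Th cells for all of the genes but *Ctsk*. *Ctsk* peaks in the *Gpnmb* class in the libraries in which that class is drawn. *Cst3* peaks in dendritic cells (DC), except in Ctrl, where microglia are highest among the classes drawn. Mature DC of Ctrl (20 cells) are not drawn.

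*Ctsd* was highest in microglia-like cells in each of the 4 libraries. Its level there was 10006 CPM (9914 to 10098) in mIgG1 against 5842 CPM in Ang2 Ab, and 5777 CPM in Ctrl against 7104 in *EC-Ang2*, next to 8684, 5006, and 5054 CPM in the *Gpnmb* class of mIgG1, Ang2 Ab, and *EC-Ang2*. In Ly6c2 monocyte-like cells, the recruited precursors of macrophages, it was 801 to 1171 CPM. *Ctsb* followed a like order, with 4703, 3134, 2872, and 3973 CPM in microglia-like cells and 1390 to 1587 CPM in monocyte-like cells. The leading class of *Ctsb* differed between libraries: the *Gpnmb* class in mIgG1 (5783 CPM), the *Ms4a7* class in Ang2 Ab (3991 CPM) and Ctrl (3065 CPM), and in *EC-Ang2* the *Gpnmb* class (4150 CPM) with an interval that overlapped that of microglia-like cells. Over the 41 class-by-library points with at least 30 cells, *Ctsb* and *Ctsd* were each other's nearest genes among 2493 (Pearson r = 0.94 of log2 CPM, a description over points that share libraries and free RNA).

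*Ctss* was abundant in monocytes as well as in mature phagocytes. It stood at 12027, 9491, and 10897 CPM in the *Gpnmb* class of mIgG1, Ang2 Ab, and *EC-Ang2*, at 7249 to 9736 CPM in the *Ms4a7* class, and at 7800 to 10841 CPM in microglia-like cells. Monocyte-like cells already held 5141 to 6575 CPM. At an equal 2000 UMIs per cell, 99.8% to 100% of monocyte-like cells had a *Ctss* UMI, and its pattern was nearest to that of *Cd68* (r = 0.96), the pan-macrophage lysosomal glycoprotein. *Ctsl*, in contrast, was lower in monocyte-like cells (294 to 465 CPM) than in microglia-like cells, which had 1214, 1234, 1957, and 1640 CPM and ranked highest for *Ctsl* in every library, although the interval overlapped that of the *Gpnmb* class in mIgG1.

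*Ctsk* transcripts were highest in the *Gpnmb* class. Its level there was 66.0 CPM (60.8 to 71.5) in mIgG1, 79.7 (72.7 to 87.2) in Ang2 Ab, and 98.5 (89.7 to 107.8) in *EC-Ang2*, and 3 UMIs were counted in the 13 Ctrl cells. The *Nos2* class had 19.0 CPM (mIgG1), 22.4 (Ang2 Ab), 5.27 (Ctrl), and 21.7 (*EC-Ang2*). In the *Ms4a7* class it was 7.76, 7.38, and 3.03 CPM in mIgG1, Ang2 Ab, and *EC-Ang2*, with 0 of 553720 UMIs in Ctrl, which allows up to 6.66 CPM. Microglia-like cells had 0 to 12.7 CPM, and ECs did not exceed 1.24 CPM. The gene with the most similar pattern was *Gpnmb* itself (r = 0.86), which encodes a glycoprotein of lysosomes and melanosomes. The neighboring *Ctss* had a less similar pattern (r = 0.54). *Ctsk* was left out of the clustering, but *Gpnmb* was among the markers that name this class.

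*Ctsc* and *Ctsz* had a different order of classes from *Ctsd*. Among the 9 named classes *Ctsc* was highest in monocyte-like cells of mIgG1 (1947 CPM), Ang2 Ab (2022), and *EC-Ang2* (2212, with an interval overlapping that of the *Nos2* class), and in the *Nos2* class of Ctrl (3105 CPM), whereas the *Gpnmb* class had 1140 to 1264 CPM in the libraries with enough cells. The 5 genes nearest to *Ctsc* were *Ccdc86*, *Mmp14*, *Ms4a6d*, *Ms4a6c*, and *Pid1* (r = 0.93 to 0.95). *Ctsz* was highest in microglia-like cells of mIgG1 (3254 CPM) and *EC-Ang2* (2946 CPM) and in the *Nos2* class of Ctrl (2553 CPM), and these classes could not be separated in Ang2 Ab. It was also retained in dendritic cell-like cells, at 1181 to 1489 CPM, and in mature dendritic cell-like cells, at 1178 to 1563 CPM, where *Ctsl* had no more than 43.9 CPM in the 3 libraries with at least 30 such cells.

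*Lgmn* was highest in microglia-like cells of each library, at 2913, 3223, 4552, and 4089 CPM, followed in each by the *Ms4a7* class at 1832, 2289, 2453, and 2353 CPM. The *Nos2* class had 423 to 516 CPM. *Grn* was likewise highest in microglia-like cells of each library, at 2770, 2206, 1845, and 2465 CPM, and its pattern was nearest to that of *Hexa* (r = 0.98), the alpha subunit of beta-hexosaminidase. *Cst3* stood apart from the proteases: mature dendritic cell-like cells had 20128, 27253, and 24876 CPM in mIgG1, Ang2 Ab, and *EC-Ang2*, and dendritic cell-like cells 19741, 20765, 9918, and 14162 CPM. These same dendritic cell-like cells had 2103 to 3190 CPM of *Ctss*, and 345 to 592 CPM of *Ctsb*, of which free RNA could supply 12.8% to 15.3%. Macrophage-like classes had 1343 to 3390 CPM of *Cst3*, and its nearest gene was *Cd83* (r = 0.94), a marker of mature dendritic cells. In microglia-like cells *Cst3* was 5714 CPM for mIgG1 and 7647 for Ang2 Ab, and 22093 CPM for Ctrl and 7180 for *EC-Ang2*. Ctrl was thus far above *EC-Ang2*, the other library of its pair.

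The blockade pair asked whether Ang2 neutralization went along with other levels of these genes. Transcripts of cathepsins B and D were lower in the microglia-like cells of the Ang2 Ab library, and those of cathepsin L and legumain were not. *Ctsd* was 10006 CPM in mIgG1 and 5842 in Ang2 Ab (log2 ratio −0.78, −0.80 to −0.75), and *Ctsb* 4703 and 3134 CPM (−0.59, −0.62 to −0.55). These 2 of the 9 members measured were lower by the size rule and none was higher, in a comparison in which 3.98% of 7616 genes were lower and 6.43% higher. The study had listed *Ctsb*, *Ctsd*, *Ctsl*, and *Grn* for macrophages as inversely regulated by blockade and overexpression in these libraries. Their direction is thus not independent evidence. Over 10 alternative settings *Ctsd* stayed between −0.95 and −0.77 and *Ctsb*, which lay at the threshold, between −0.69 and −0.59. *Grn* was at −0.33, *Ctsl* at 0.02 (−0.03 to 0.08), *Lgmn* at 0.15, and *Cst3* at 0.42. The median of the 9 was −0.12, next to 0.07 over all genes tested.

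By cluster, *Ctsd* was lower by the size rule in each of the 3 microglia-like clusters and *Ctsb* in 1, with log2 ratios for *Ctsb* of −0.55, −0.63, and −0.47 in the order given here. The share of all genes past the rule was not counted for single clusters, so these calls have no background to be set against. In the cluster led by *Tnf*, *P2ry12*, and *Tmem119* (83 and 125 cells), *Ctsd* was 13396 CPM in mIgG1 and 7224 in Ang2 Ab and *Ctsb* 5151 and 3519. In the cluster led by *Cst7* and *Cx3cr1*, whose cells had the most UMIs, *Ctsd* was 9204 and 5248 CPM and *Ctsb* 4626 and 2981. In the cluster led by *Ccl12* and *Fcrls* (30 and 39 cells) *Ctsd* was 11063 and 4746 CPM and *Ctsb* 3620.2 and 2614. General macrophage markers moved with these values. Of these, 7 of 7 were detected in the microglia-like cells, and their sum was 12277 CPM in mIgG1, as against 7794 in Ang2 Ab. The *Ms4a7*-type (39816 and 24681 CPM) and *Nos2*-type markers (1083 and 811 CPM) were also lower in Ang2 Ab. In contrast, the *Gpnmb*-type (4067 and 4259 CPM), Ly6c2 monocyte (1266 and 1493 CPM), and microglial markers (2690 and 3657 CPM) were higher. The part of these markers in the result was not tested. The free RNA itself differed in the same direction, with *Ctsd* at 3845 CPM in the near-empty droplets of mIgG1 and 2226 CPM in those of Ang2 Ab, but it accounted for 1.75% to 1.87% of the *Ctsd* level of these microglia-like cells.

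**Figure D2:**
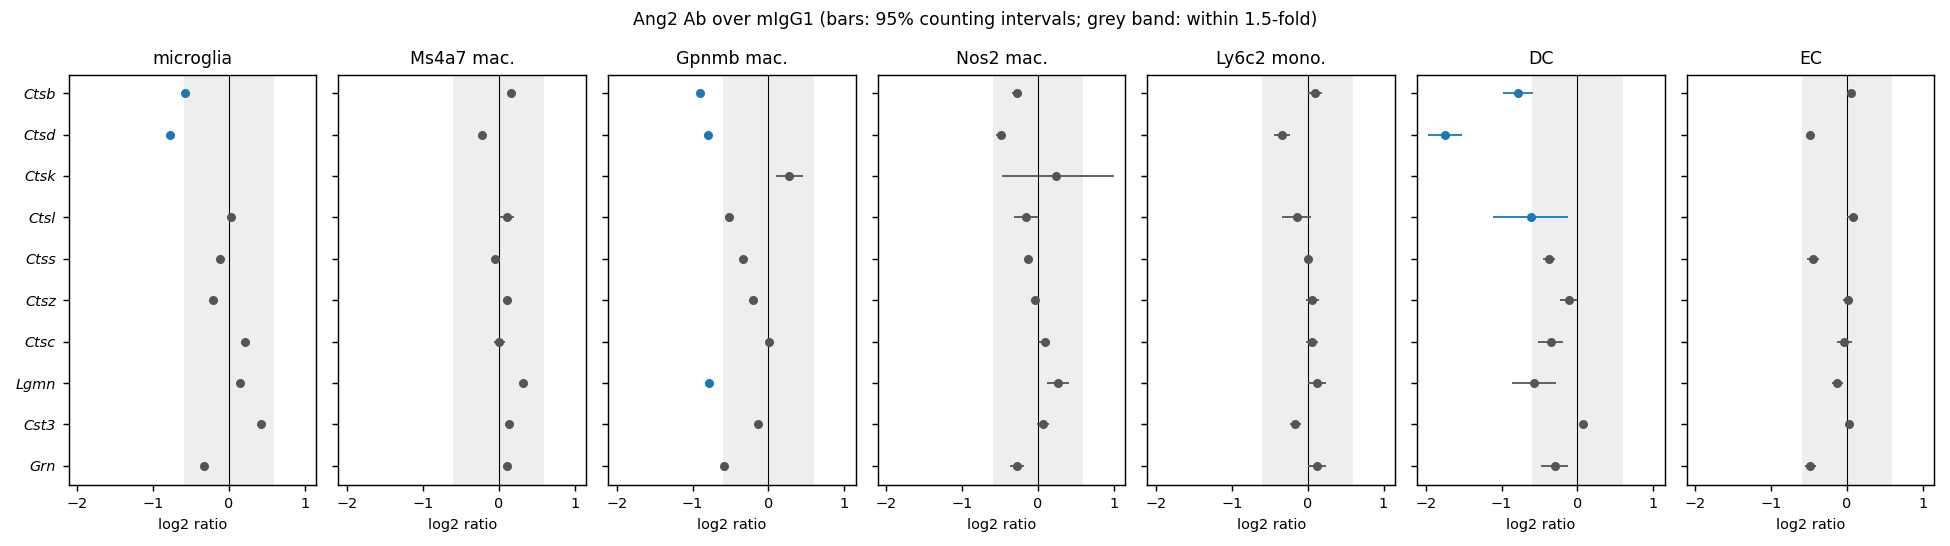
Log2 ratio of Ang2 Ab over mIgG1 for each gene in 7 cell classes; bars are 95% counting intervals, the grey band is within 1.5-fold, and blue points are lower by the size rule. *Ctsd* lies left of 0 in all 7 classes and *Ctsb* is lowest in *Gpnmb* macrophages, whereas no gene passes the rule in *Ms4a7* macrophages, *Nos2* macrophages, monocytes, or ECs.

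In macrophage-like cells as a whole, *Ctsd* (6856 CPM in mIgG1 and 3999 in Ang2 Ab; −0.78), *Ctsb* (4778 and 2967; −0.69), and *Lgmn* (−0.61) were lower, 3 of 10 members in a class in which 2.59% of 5879 genes were lower and 3.66% higher. The median over the 10 was −0.41, next to 0.02 for all genes. The classes within them differed. In the *Gpnmb* class *Ctsb* was 5783 and 3088 CPM (−0.91, −0.93 to −0.88), *Ctsd* 8684 and 5006 (−0.79), and *Lgmn* 1409 and 820.4 (−0.78), with 3.06% of genes lower and 3.49% higher. *Grn* (−0.58) and *Ctsl* (−0.52) were close to the threshold there. These values depended on how the class was delimited: *Ctsb* ranged from −1.20 when each library was clustered alone to −0.30 when the members were kept in the clustering, *Ctsd* from −1.03 to −0.22, and *Lgmn* from −1.16 to −0.11, each past 1.5-fold in 6 of 10 alternatives. In the *Ms4a7* class, *Ctsb* was 3581 and 3991 CPM (0.16), *Lgmn* 1832 and 2289 CPM (0.32), and *Ctsd* 4700 and 4049 CPM (−0.21), and 0 of 9 members passed the size rule, where 2.36% of genes were lower and 5.17% higher. None of 10 passed it in the *Nos2* class (4.59% of genes lower and 6.41% higher), although *Ctsd* was at −0.49, and none of 9 in monocyte-like cells (4.24% lower and 6.53% higher), where *Ctsb* was at 0.10 and *Ctsd* at −0.34. The difference between these classes was not tested.

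The cells that made up the macrophage-like class were also different in the 2 libraries. A cluster led by *Gpnmb*, *Fabp5*, and *Pf4*, which had the highest *Ctsb* and *Ctsd* of the macrophage-like clusters in mIgG1, Ang2 Ab, and *EC-Ang2*, made up 41.4% of the macrophage-like cells of mIgG1 (679 cells) and 10.6% of those of Ang2 Ab (148 cells). The other *Gpnmb* cluster, with *Ccl24*, *Mmp12*, *Ctsk*, and *Arg1* among its leading genes, made up 12.6% and 41.6%. Within the first, *Ctsb* was 6441 and 4357 CPM (−0.56) and *Ctsd* 9555 and 6531 CPM (−0.55), and within the second *Ctsb* was 3294 and 2737 CPM (−0.27) and *Ctsd* 5388 and 4584 CPM (−0.23). With every cluster given the same weight in both libraries, *Ctsd* in macrophage-like cells was at −0.39, *Ctsb* at −0.28, and *Lgmn* at 0.02. None of the 3 was then past 1.5-fold, and *Lgmn* had the opposite sign; this alternative was chosen after seeing the data. *Ctsk* was 67.7 and 62.2 CPM in the first cluster and 59.2 and 84.6 CPM in the second.

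**Figure D3:**
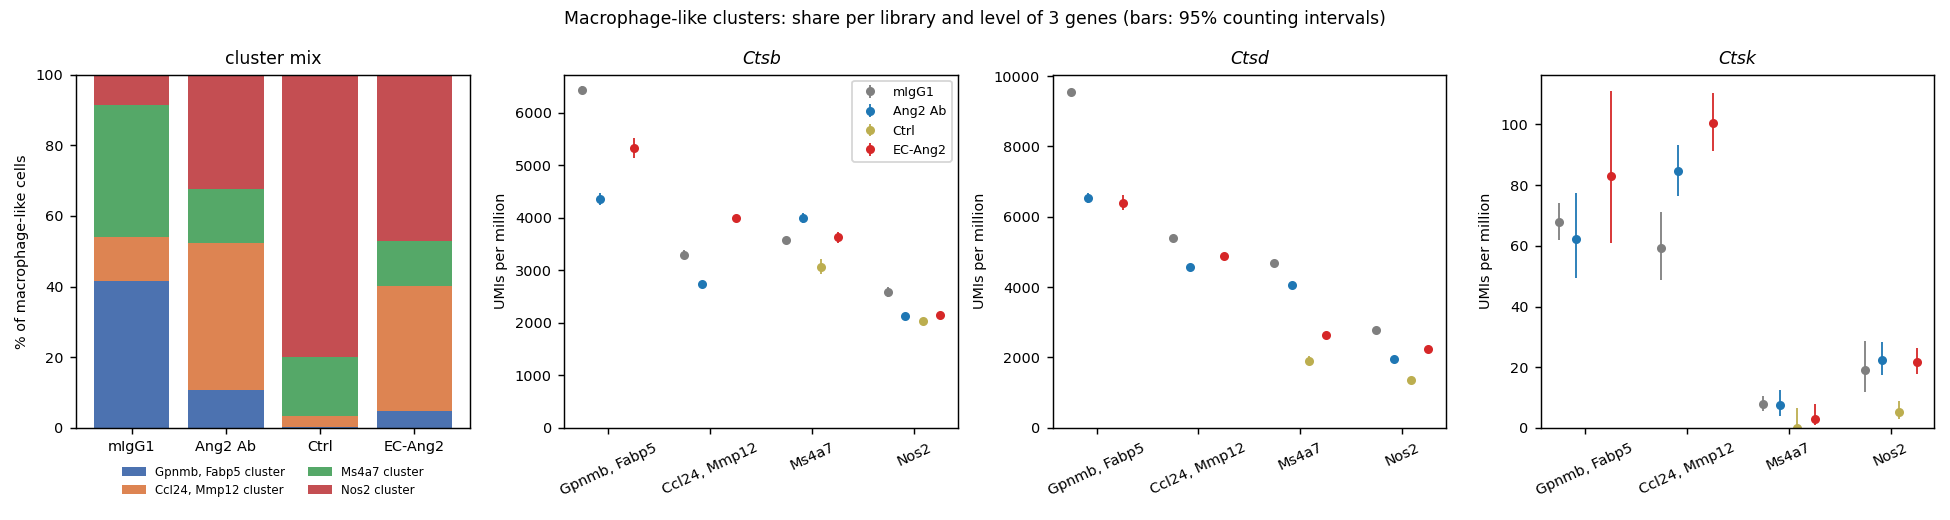
Left, share of macrophage-like cells in each of 4 clusters per library; right, level of *Ctsb*, *Ctsd*, and *Ctsk* in CPM in each cluster with at least 30 cells, with 95% counting intervals. The cluster led by *Gpnmb* and *Fabp5* holds 41.4% of macrophage-like cells in mIgG1 and 10.6% in Ang2 Ab, and 0.255% in Ctrl and 4.73% in *EC-Ang2*.

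*Ctsd* was below its mIgG1 level in all 10 classes of the blockade pair in which it was measured, counting macrophages by class, with log2 ratios of −1.74 to −0.21. The most negative was in dendritic cell-like cells, at 745 CPM (756 UMIs in 130 cells) and 223 CPM (217 UMIs in 142 cells). *Ctsb* was at −0.78 and *Ctsl* at −0.61 in these cells, so that 3 of 9 members were lower where 4.94% of genes were lower and 7.79% higher, but *Ctsl* rested on 92 and 58 UMIs, and *Ctsb* was at 0.12 in cells gated on marker UMIs. Free RNA could supply 21.3% and 40.0% of this *Ctsd*. In the same cells the 7 *Ms4a7*-type macrophage markers, all detected, summed to 3198 and 818 CPM, and the 9 microglial markers, of which 2 were at 0 in Ang2 Ab, to 213 and 78.0 CPM; their part in the result was not tested. In mature dendritic cell-like cells *Ctsd* (−0.89) was the only member of 8 past the rule, where 5.92% of genes were lower and 7.71% higher. Free RNA as estimated from EC genes would give 122% of its mIgG1 level. However, the EC markers summed to 871 CPM in these cells of mIgG1 and 331 CPM in Ang2 Ab. The estimate cannot separate free RNA from droplets that also held an EC. In Th cell-like cells *Ctsd* was lower (−0.70) and *Cst3* higher (0.96), 1 of 9 in each direction where 4.85% and 7.02% of genes were, and free RNA could supply 33.0% and 28.9% of that *Ctsd*. In ECs *Ctsd* was 562 and 401 CPM (−0.49) and *Grn* 223 and 160 CPM (−0.48), and free RNA could supply 45.4% and 39.1% of that *Ctsd*. No member of 9 passed the size rule in ECs, where 1.48% of genes were lower and 1.34% higher, and their median was −0.03, as against 0.03 for all genes.

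The overexpression pair asked the converse question, with Ang2 supplied by the endothelium. *Cst3* was lower in the microglia-like cells of *EC-Ang2* (22093 CPM in Ctrl and 7180 in *EC-Ang2*; −1.62, −1.66 to −1.58), the only member of 9 past the size rule, in a comparison in which 17.1% of 6473 genes were lower and 7.40% higher. The *EC-Ang2* value rests on 68 cells. The level was lower in each cluster: 25640 and 8322 CPM in the one led by *Tnf* and *P2ry12* (417 and 19 cells), 25880 and 7036 CPM in the one led by *Ccl12* (226 and 34 cells), and 12886 and 6119 CPM in the one led by *Cst7* (94 and 15 cells). The 9 microglial markers, none of them at 0, summed to 6908 CPM in Ctrl and 3544 CPM in *EC-Ang2*, and the part of this in the *Cst3* value was not tested. The other members of this class were between −0.36 (*Ctss*) and 0.47 (*Ctsb*), and the median of the 9 was 0.30, next to −0.07 for all genes. Its sign was not stable, as it was −0.01 for the mean of single-cell CPM and −0.13 for cells gated on marker UMIs.

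*Cst3* was also lower in the *Ms4a7* class (3390 and 1885 CPM; −0.85), the *Nos2* class (2278 and 1502; −0.60), and ECs (1115 and 599; −0.90). In the *Nos2* class *Cst3* was past 1.5-fold in 5 of 9 alternatives and at −0.43 with free RNA subtracted. By contrast, it was 9918 and 14162 CPM in dendritic cell-like cells (0.51), in which none of 9 members passed the rule (4.38% of genes were higher and 5.82% lower). The near-empty droplets of these libraries held 8252 and 2850 CPM of *Cst3*, a log2 ratio of −1.53. Free RNA could supply 32.1% and 19.6% of the *Cst3* of ECs, 9.16% and 5.98% of that in the *Ms4a7* class, and 1.61% and 2.04% of that in microglia-like cells. In Th cell-like cells *Cst3* was 1770 and 323 CPM and all 9 members measured were lower (6.47% of genes were lower and 4.67% higher there), with 18.9% to 83.6% of each level within what free RNA could supply. The 7 *Ms4a7*-type markers summed to 2286 and 374 CPM in these cells, and the 9 microglial markers, 1 of them at 0 in *EC-Ang2*, to 412 and 71.7 CPM, and their part in the result was not tested.

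Macrophage-like cells of *EC-Ang2* had higher transcript levels of cathepsins D, K, and L and lower transcript levels of cathepsin C and cystatin C. *Ctsd* was 1511 CPM in Ctrl and 3536 in *EC-Ang2* (1.23), *Ctsl* was at 1.03, and *Ctsk*, with 18 UMIs in Ctrl, at 3.38 (2.71 to 4.15). *Ctsc* and *Cst3* were each at −0.72. *Ctsb* (0.49) and *Grn* (0.48) were within 1.5-fold. The study's macrophage list held *Ctsb*, *Ctsd*, *Ctsl*, and *Grn*, so that their direction is not independent evidence. With the same cluster mix in both libraries *Ctsd*, *Ctsl*, and *Ctsk* were at 0.63, 0.70, and 2.35, and *Ctsc* and *Cst3* at −0.41 and −0.60. *Ctsb* and *Grn* were then at 0.006 and 0.26. This mix took only clusters with at least 10 cells in each library. It left out the cluster led by *Gpnmb* and *Fabp5*, which had 1 cell in Ctrl. The *Gpnmb* cluster with *Ccl24* and *Mmp12* entered it with only 12 Ctrl cells. The members past the rule were 3 higher and 2 lower of 10, where 6.08% of 6002 genes were higher and 6.58% lower, and the median was 0.47, next to 0.02 for all genes. Ctrl macrophage-like cells were 79.8% *Nos2* class and those of *EC-Ang2* 47.2%, so that the classes had to be read singly. In the *Nos2* class *Ctsd* was 1347 and 2254 CPM (0.74, 0.69 to 0.80) and *Ctsk* 5.27 and 21.7 CPM (2.04, 1.25 to 2.93; 15 and 102 UMIs), 2 members higher and, with *Cst3*, 1 lower where 4.86% and 4.93% of genes were, whereas *Ctsl* was at 0.45, *Ctsb* at 0.07, and *Ctsc* at −0.52. In the *Ms4a7* class *Ctsl* was 601 and 1055 CPM (0.81) and *Ctsd* 1913 and 2648 CPM (0.47), 1 member higher and, with *Cst3*, 1 lower where 9.42% and 8.18% of genes were. For cells gated on marker UMIs *Ctsl* was at −0.24 in that class and at −0.11 in all macrophage-like cells. The Ctrl values of that class come from 66 cells. Markers of other classes moved with them: the 6 *Gpnmb*-type markers summed to 3157 and 9817 CPM and the 7 Ly6c2 monocyte markers to 2478 and 8183 CPM, none at 0, and their part in the result was not tested. In monocyte-like cells no member passed the rule (2.92% of genes were higher and 4.10% lower), with *Ctsd* at 0.40 and *Cst3* at −0.51.

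**Figure D4:**
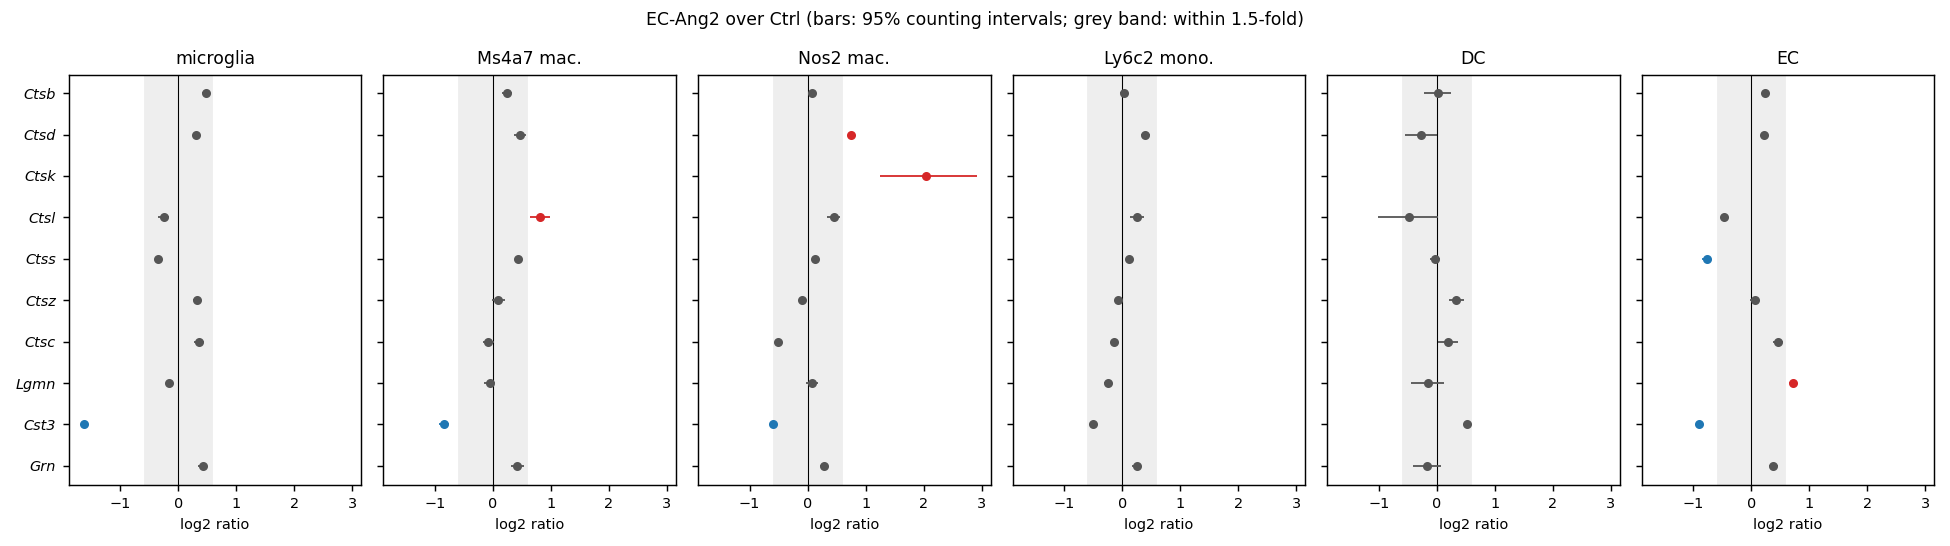
Log2 ratio of EC-Ang2 over Ctrl for each gene in 6 cell classes; bars are 95% counting intervals, the grey band is within 1.5-fold, and red and blue points are higher and lower by the size rule. *Cst3* lies left of 0 in microglia, both macrophage classes, monocytes, and ECs, and right of 0 in dendritic cells (DC).

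In ECs of the overexpression pair *Lgmn* was higher (171 CPM in Ctrl and 281 in *EC-Ang2*; 0.71, 0.65 to 0.78), and *Cst3* and *Ctss* were lower, 1 and 2 of 9 members where 5.47% and 5.33% of genes were. *Ctss* was 172 and 101 CPM (−0.77), but the level that free RNA alone would give was 107% and 135% of these values, and 109% and 121% of those of mIgG1 and Ang2 Ab, so that no *Ctss* of the ECs' own was detectable. For *Lgmn*, free RNA could supply 32.8% in Ctrl and 10.2% in *EC-Ang2*. The mix of EC clusters also differed, and whether the transgene itself moved ECs between clusters was not tested. A cluster led by *Angpt2*, the gene of Ang2, held 112 Ctrl and 646 *EC-Ang2* ECs and had 258 and 343 CPM of *Lgmn* (0.41), and the venous-type cluster led by *Selp* and *Ackr1* had 277 and 320 CPM (0.21). With the same cluster mix in both libraries, *Lgmn* in ECs was at 0.28, below the size rule, and *Cst3* at −0.59. *Ctsc* was highest in the *Selp* cluster in 3 libraries, at 222 CPM in Ang2 Ab, 231 in *EC-Ang2*, and 158 in mIgG1, and lowest in the cluster led by *Stmn2* and *Gkn3*, at 35.1 to 48.7 CPM. Near-empty droplets held 571, 577, 805, and 678 CPM of *Ctsc* (mIgG1, Ang2 Ab, Ctrl, *EC-Ang2*). Free RNA was estimated at 6.64%, 7.04%, 4.34%, and 4.12% of EC UMIs in these libraries. Its part in the *Ctsc* of single clusters was not tested. In that *Stmn2* cluster *Ctsd* was 562 CPM in Ctrl and 1241 in *EC-Ang2* (1.14).

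**Figure D5:**
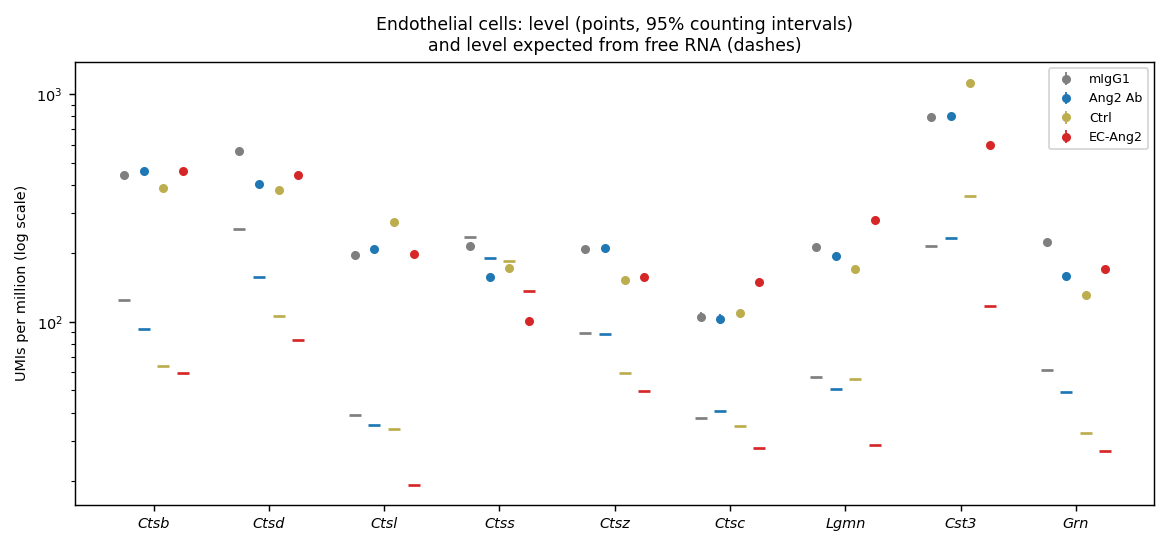
Levels of 9 genes in ECs in CPM on a log axis (points, with 95% counting intervals) and the level that free RNA would give in each library (dashes). The dashes of *Ctss* lie above all 4 of its points, whereas those of the other genes lie below.

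A cluster left unnamed, with *Ccr2*, *H2-Eb1*, and *Cd74* among its leading genes, had *Ctsc* levels above those of monocyte-like cells in each library (2172 CPM in mIgG1 and 2160 in Ang2 Ab, with 2979 in Ctrl and 2520 in *EC-Ang2*), with *Ctss* at 5226 to 6627 CPM and *Ctsd* at 1341 to 2136 CPM. None of 9 members passed the rule in it. Under blockade 2.4% of its genes were lower and 3.4% higher, and under overexpression 6.22% and 5.95%. Granulocyte-like cells (268 Ctrl and 312 *EC-Ang2* cells) had *Ctsd* at 2553 and 2547 CPM. There *Grn* was higher (272 and 479 CPM; 0.82) and *Cst3* (−1.32) and *Lgmn* (−0.77) were lower, 1 and 2 of 9 members where 22.2% and 6.81% of genes were, with the median of all genes at 0.22.

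Other lysosomal genes were counted by the same rule, from lists written with earlier results of these data known. Of 25 lysosomal hydrolases measured in macrophage-like cells, 5 were lower and none higher in Ang2 Ab, with a median of −0.42, where 2.59% of all genes were lower and 3.66% higher and their median was 0.02; the most negative were *Lipa* (−0.92), the acid lipase of cholesteryl esters, *Man2b1* (−0.92), a mannosidase, and *Pla2g15* (−0.77), a phospholipase. In the *Ms4a7* class their median was −0.03, and in the *Gpnmb* class −0.45. In *EC-Ang2* macrophage-like cells 8 of 25 were higher and none lower (6.08% and 6.58% of all genes), led by *Acp5* (1.73), the tartrate-resistant phosphatase of osteoclasts, *Galns* (0.82), and *Hexa* (0.81). Within the *Ms4a7* class of this pair 2 of 23 were higher and 2 lower (9.42% and 8.18% of all genes), with a median of 0.03. Within the *Nos2* class 3 of 23 were higher and none lower (4.86% and 4.93%), with a median of 0.22. The hydrolases and proton pump subunits were not recomputed at an equal cluster mix. Subunits of the proton pump were near the median of all genes in macrophage-like cells of the blockade pair (median 0.06 over 15). The exception was *Atp6v0d2* (0.71), which was also higher in *EC-Ang2* (2.13). It is among the leading genes of both *Gpnmb* clusters. The one with *Ccl24* made up 12.6% and 41.6% of macrophage-like cells under blockade and 3.06% and 35.5% under overexpression, control first. The other made up 41.4% and 10.6%, and 0.255% and 4.73%. In the *Gpnmb* class under blockade none of 15 subunits passed the size rule. In the *Nos2* class *Atp6v0d2* was higher in both pairs (1.85 and 0.97). The part of the mix was not tested.

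Among inhibitors, *Cst7*, the cystatin F of activated microglia, was 502 CPM in mIgG1 and 225 in Ang2 Ab microglia-like cells (−1.16) and 132 CPM in Ctrl and 539 in *EC-Ang2* (2.03). The microglia-like cluster led by *Cst7* made up 62.7% of these cells in mIgG1 and 48.4% in Ang2 Ab. It made up 12.8% in Ctrl and 22.1% in *EC-Ang2* (15 of 68 cells). The part of this mix in the *Cst7* values was not tested. *Ctla2a*, a cathepsin L propeptide-like inhibitor, was abundant in ECs: 5714 and 3753 CPM under blockade (−0.61) and 2485 and 5935 CPM under overexpression (1.26), control first. Its near relative *Ctla2b*, with which reads may be shared, was at 1.15 in *EC-Ang2* ECs. The study had listed *Cst7* for microglia and *Ctla2a* for capillary-venous ECs as inversely regulated by blockade and overexpression in these libraries. *Acp5* and *Hexa* were on its macrophage list. The opposite directions of these genes are thus not independent evidence. Of the other cathepsins, *Ctsa*, which also protects lysosomal glycosidases, was lower in the *Gpnmb* class of Ang2 Ab (695 and 455 CPM; −0.61). Those past the rule in microglia-like cells were *Ctsw* under blockade (−1.11, from 77 and 27 UMIs) and *Ctsf* under overexpression (−1.05, from 523 and 30 UMIs). *Ctsw* was 16.8 and 7.79 CPM there, against 546 and 354 CPM in Th cell-like cells of mIgG1 and Ang2 Ab. In the same microglia-like cells NK or CD8 T cell markers summed to 1711 and 620 CPM and Th cell markers to 206 and 121 CPM. The part of these lymphocyte markers in the *Ctsw* value was not tested.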

How the data were processed

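Cells of 4 spinal cord libraries were captured with 10x 3′ v2 chemistry. The authors deposited raw UMI counts per gene and barcode, empty droplets included, made with Cell Ranger 2.1.1 on mm10; Seurat 2.3.4 is named in their processing notes. Libraries held 52084739 to 66631583 UMIs. Starting from these counts, barcodes with at least 2000 UMIs and under 10% mitochondrial UMIs were kept, and doublets (0.8% per 1000 barcodes by simulated-doublet score) and cycling cells (at least 3 of 12 proliferation genes detected) were removed. Cells of all libraries were clustered jointly (2000 variable genes without the members and listed genes, 30 components, 20 neighbors, Leiden resolution 1; leidenalg 0.10.2) and named from markers; mixed clusters were left out. UMIs were summed per class and library. Free RNA was estimated from EC genes in immune cells, immune genes in ECs, and droplets of up to 100 UMIs. Log2 ratios are treated over control where both libraries had at least 30 cells, with 3 UMIs in place of 0. A level of 0 UMIs has an exact upper bound only.

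Named were all members, up to 3 genes per direction of each list, and the 5 genes of most similar pattern; cluster-level values were added after the data had been seen. Members and lists were chosen with earlier results of these data known. The calling was tested on simulated counts that held counting error only. This cannot show how often the size rule is passed through variation between cells, mice, or libraries. Reads are 3′ tags, so levels of different genes were not ranked.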

Additional observations from a re-analysis of the deposited data

Results flagged for a closer look

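In the overexpression pair, 4 genes were past the 1.5-fold size rule in opposite directions in different cell classes. With 1 library per condition, the differences between classes were not tested, and the share of all genes with such opposite calls was not counted. In Th cell-like cells all 9 members measured were lower, where 6.47% of genes were. In granulocyte-like cells 22.2% of genes were higher and 6.81% lower. *Ctsd* was higher in the *Nos2* macrophage-like class (log2 ratio 0.74) and lower in Th cell-like cells (−0.86), and *Ctsl* was higher in the *Ms4a7* class (0.81) and lower in Th cell-like cells (−2.09). *Lgmn* was higher in ECs (0.71) and lower in Th cell-like (−2.35) and granulocyte-like cells (−0.77). In the near-empty droplets *Lgmn* was at −0.89. *Grn* was higher in granulocyte-like cells (0.82) and lower in Th cell-like cells (−1.15). Free RNA could supply 24.4% and 34.4% of the *Ctsd*, 34.9% and 83.6% of the *Ctsl*, 28.6% and 73.6% of the *Lgmn*, and 31.8% and 57.9% of the *Grn* of Th cell-like cells in Ctrl and *EC-Ang2*; its part in the ratios was not tested.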

How the results depend on the processing

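No paired analysis was possible because each condition had 1 library. Outside Th cell-like and granulocyte-like cells, whose values were not recomputed, member values past 1.5-fold numbered 12 (blockade) and 14 (overexpression). Macrophage-like cells as a whole and the classes within them were counted separately, so that the same cells can enter more than once. The shares of all genes past the rule are given with each class above. Those of *Ctsd* and *Ctsb* in microglia-like cells (blockade) and of *Cst3* in microglia-like cells (overexpression) were past it under all 10 alternatives, whereas *Lgmn* in blockade macrophage-like cells had the opposite sign with the same cluster mix (0.024). In cells gated on marker UMIs the sign turned for *Ctsb* in dendritic cell-like cells (blockade, 0.12) and, in the overexpression pair, for *Ctsl* in macrophage-like cells (−0.11) and its *Ms4a7* class (−0.24). The cause was not tested.

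The median of the members moved as follows. With cycling cells kept it was −0.18 (microglia-like, blockade), 0.23 (microglia-like, overexpression), and 0.14 (ECs, overexpression). With members kept in the clustering it was −0.08 and −0.44 (microglia- and macrophage-like, blockade) and 0.12 (microglia-like, overexpression). With each library clustered alone it was −0.48 (macrophage-like, blockade) and 0.070 and 0.42 (microglia- and macrophage-like, overexpression). With gates it was −0.33 and −0.28 (blockade) and −0.13 and 0.11 (overexpression). With the same cluster mix, chosen after seeing the data, it was −0.16 and −0.094 (blockade), and 0.084 in macrophage-like cells and 0.053 in ECs (overexpression). Without doublet removal it was 0.10 and 0.39, and centered on all genes 0.37 in microglia-like cells (overexpression) and −0.19 (blockade). The mean of single-cell CPM gave −0.0051 (microglia-like, overexpression), the Cell Ranger threshold 0.50 (macrophage-like, overexpression), and subtraction of free RNA 0.34 (ECs, overexpression).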
